A study of Homo sapiens with 6 samples.

Results

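Regions bound by estrogen receptor alpha (ERα) that were listed for the wild-type receptor and for K303R, each without and with estradiol (E2), but for Y537S in neither treatment, were taken from ChIP-seq peak lists of MDA-MB-453 cells. MDA-MB-453 is an established human breast cancer line of apocrine type that expresses the androgen receptor. Peaks of the 6 lists on chromosomes 1 to 22 were merged where they overlapped by 1 bp or more, which gave 169433 regions. Of these, 73599 were in both K303R lists and both wild-type lists, and 3535 of those were in neither Y537S list. These 3535 regions, 4.8% of the 73599, were chosen by their presence in the lists alone and are called the absent regions. A further 4263 of the 73599 were in 1 of the Y537S lists, and 65801 were in all 6.

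The groups were Y537S, K303R and wild type, each with 1 nM E2 or with none, with 1 library per group. All 6 were grown in medium with 10% fetal bovine serum, not said to be stripped of hormone, and received 2 µg/mL doxycycline for 2 days, which switches on the introduced receptor, so the groups without E2 carry receptor and doxycycline too. The antibody used for precipitation, D8H8, is directed against ERα. Each receptor comes from a single line (named with a number, such as WT-4, in the lists), and the lists do not measure expression, so receptor levels and the cells' markers were not checked. The Y537S lists carry another date-like tag in their peak names (20200821) than the K303R and wild-type lists (20200710). Where Y537S is set against the others, its receptor, its line and its tag cannot be told apart. The comparisons of E2 with no E2, and of K303R with wild type, each lie within 1 tag.

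ERα is a nuclear receptor that binds estrogen response elements, inverted repeats of a short half-site, and also reaches DNA through other factors such as AP-1. Pioneer factors of the forkhead and GATA families open many of its sites in luminal breast cells, most of them enhancers far from genes. Y537S, a ligand-binding-domain substitution found in endocrine-resistant tumours, holds the receptor in an active shape without hormone. K303R is a hinge-region substitution.

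A peak list shows where a peak passed the caller's threshold, so absence from a list is not absence of binding. The weakest peaks of the 6 lists had 5 or 6 fragments at the summit and a −log10 p of 3.05 to 3.25. The lists held 103833 (K303R with E2), 102848 (K303R without), 109230 (Y537S with), 113714 (Y537S without), 117710 (wild type with) and 121641 (wild type without) peaks on these chromosomes. Total reads are not given, and the lowest local background per library, a stand-in for depth, ran from 0.987 fragments in Y537S without E2 to 1.21 in wild type without E2. Summit fragments were recovered from the deposited fold and p of each peak and are printed as counts, not scaled. The libraries' relative sizes, from the median ratio at well-covered regions of all 6 lists, were 0.984 (K303R with E2), 0.790 (K303R without), 1.09 (wild type with) and 1.07 (wild type without), so that the same count stands for more signal in K303R without E2. With 1 library per group no difference has a replicate check and no test was made. Intervals are 95% and cover counting error only.

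Few absent regions lay at gene starts, and those that did are shown first because there the sequence under the peak could be read. The RefSeq promoter table (GRCh38.p14) covers chromosomes that hold 3349 of the 3535 absent regions. The summit of 54 fell in a promoter window of the table, and 36 of these hit the windows of 40 protein-coding genes. The 250 bases before the start site are printed for the 4 genes whose regions had the highest lowest −log10 p, in the direction of transcription, with motif matches in capitals. They belong to PMP22, a myelin membrane protein, IGF1, a growth factor that signals through the IGF1 receptor, VAV3, an intracellular signalling protein, and NEU1, a lysosomal sialidase. All 4 lie on the minus strand, at chr17:15265327-15265576, chr12:102481748-102481997, chr1:107688500-107688749 and chr6:31862822-31863071.
PMP22: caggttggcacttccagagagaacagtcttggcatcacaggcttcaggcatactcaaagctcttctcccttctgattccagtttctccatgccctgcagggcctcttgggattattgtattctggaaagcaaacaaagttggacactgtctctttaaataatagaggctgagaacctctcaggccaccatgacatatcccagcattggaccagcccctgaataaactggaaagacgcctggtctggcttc
IGF1: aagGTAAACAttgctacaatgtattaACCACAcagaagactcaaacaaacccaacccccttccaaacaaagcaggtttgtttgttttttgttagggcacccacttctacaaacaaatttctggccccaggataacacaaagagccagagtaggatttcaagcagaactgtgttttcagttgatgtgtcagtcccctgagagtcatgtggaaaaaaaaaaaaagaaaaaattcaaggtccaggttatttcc
VAV3: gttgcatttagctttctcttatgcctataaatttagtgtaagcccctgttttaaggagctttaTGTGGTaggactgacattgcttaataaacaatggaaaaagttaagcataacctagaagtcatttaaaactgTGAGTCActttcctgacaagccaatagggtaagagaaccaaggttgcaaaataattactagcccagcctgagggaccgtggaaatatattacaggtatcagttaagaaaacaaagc
NEU1: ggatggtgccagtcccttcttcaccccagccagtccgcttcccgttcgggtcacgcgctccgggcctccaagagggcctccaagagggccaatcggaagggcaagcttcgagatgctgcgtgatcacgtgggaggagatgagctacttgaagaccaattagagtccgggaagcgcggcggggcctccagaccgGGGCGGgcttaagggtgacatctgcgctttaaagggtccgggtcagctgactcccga
The capitals mark a forkhead match and a RUNX match in IGF1, a RUNX match and an AP-1 match in VAV3 and an SP match in NEU1, none of which overlap. The PMP22 window held no match to any of the 12 motifs searched.

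At IGF1 the region (chr12:102481721-102482320) had 40 summit fragments in K303R with E2 and 32 without, against 15 in wild type with E2 and 18 without. Both K303R libraries were above both wild-type libraries there, as counted and by either scaling used here (library size or lowest local background). At PMP22 the counts were 22 and 18 in K303R, with and without E2, and 19 and 22 in wild type, and at NEU1 they were 22 and 24, and 27 and 20. At NEU1 the lines overlapped by every scaling, and at PMP22 they overlapped as counted and scaled by background, with K303R above when divided by library size. VAV3 had 23 and 27 fragments in K303R and 17 and 19 in wild type.

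The motifs were searched on both strands in 22035 distinct windows of the same length. A full estrogen response element was in 0 of the 40 member windows and in 6 of all windows (0.0272%), and the androgen response element in 0 and in 0.250%. The half-site AGGTCA was in 7 of 40 (17.5%, against 10.5% of all). Forkhead (TGTTTAC) was in 4 of 40 (10%, against 2.46%), its variant TATTTAC in 0 (1.87%), RUNX (TGTGGT) in 8 (20%, against 9.39%) and AP-1 (TGACTCA) in 3 (7.5%, against 3.47%). The motif of GATA factors (AGATAA) was in 2 (5%, against 7.10%), grainyhead (AACCGGTT) in 0 (0.136%), AP-2 (GCCNNNGGC) in 10 (25%, against 23.4%), SP (GGGCGG) in 20 (50%, against 53.7%) and TEAD (CATTCC) in 4 (10%, against 10.5%). The median GC content was 63% in the member windows and 62% in all. The 40 windows came from 36 regions, because some neighbouring genes share a region and have overlapping windows. OR11A1 and OR2H1, both with a forkhead match, are such a pair. ARFRP1 with ZGPAT and SOD2 with WTAP are others, all with a half-site match. The 40 windows are therefore not independent. Their shares are descriptions of letters in a window and say nothing of what is bound.

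Absent regions were mostly weak where they were listed. The median summit held 17 fragments in K303R with E2, 18 in K303R without, 16 in wild type with E2 and 17 in wild type without. Regions of all 6 lists had medians of 45, 38, 53 and 54 in the same libraries. The absent regions' median −log10 p was 12.7 in K303R with E2, 12.4 without, 11.3 in wild type with E2 and 12.4 without. They were also narrower, at a median of 488 bp (253 to 1604) against 634 bp for regions of all 6 lists. Their summits lay less closely together, with a median spread over the lists of 96 bp against 56 bp. In 37.7% the background was at its lowest value in both wild-type libraries, against 7.43% of regions of all 6 lists. These values are set in part by the rule and are given as a description.

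The share of regions absent from Y537S was lower in each stronger class of the other lists. Among regions with a mean under 15 fragments over the K303R and wild-type libraries, 1139 of 4588 were absent (24.8%, 23.6 to 26.1). Between 20 and 30 fragments it was 6.32%, and between 40 and 60 fragments it was 1.27%. At 100 fragments or more it was 8 of 14302 regions (0.0559%, 0.0242 to 0.110). Regions with under 20 fragments made up 2221 of the 3535.

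**Figure D1:**
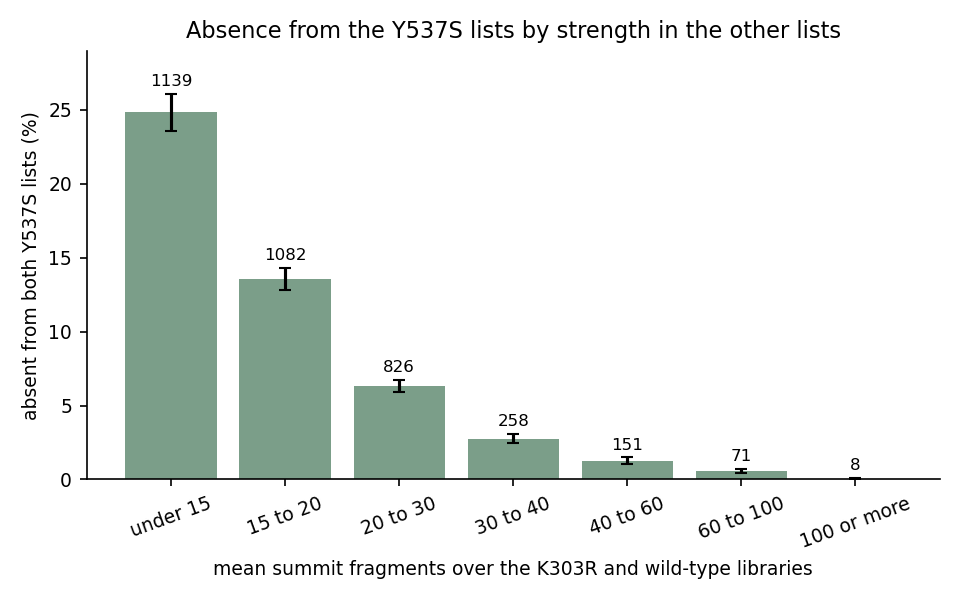
Share of regions absent from both Y537S lists (%, vertical axis) by mean summit fragments over the K303R and wild-type libraries (horizontal axis), with 95% exact binomial intervals and the number of absent regions above each bar. The share is 24.8% in the weakest class and 0.0559% in the strongest.

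At the edge of the rule the values were close to the callers' threshold. The 5 absent regions with the lowest −log10 p in any of their 4 lists had 3.61 to 3.78, and 1 of them lies 16691 bp from NRXN3, a synaptic adhesion gene. The 5 regions that were kept out by the weakest Y537S peak had a Y537S −log10 p of 3.21 to 3.25. In 4 of those that peak had 5 summit fragments, and in 1 it had 14.

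The same selection made around the other receptors gave 5241 regions missing only from K303R, 6.60% (6.43 to 6.78) of the 79396 in the other 4 lists. It gave 450 missing only from wild type, 0.659% (0.599 to 0.722) of 68329. The regions missing only from K303R were as weak in wild type, with a median of 17.5 fragments over its 2 libraries against 16.5 for those absent from Y537S, and narrower, at 441 bp.

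Y537S peaks were often close by. The nearest one lay a median of 5253 bp from an absent region (4 to 224154 bp), within 1 kb of 565 (16.0%) and within 10 kb of 2429 (68.7%). Regions missing only from K303R lay a median of 7519 bp from the nearest K303R peak. In the order of the 73599, 3076 absent regions were single, 207 runs had 2, and 15 runs had 3. How many runs a random order would give at a share of 4.80% was not computed. Runs of regions missing only from K303R, a class with a higher share (6.60%), reached 8. Of the 15 runs of 3, 6 held no Y537S peak between their ends. They included one of 3169 bp inside PDE4B, the gene of a cyclic AMP phosphodiesterase (chr1:65811135-65814303), and one of 366700 bp on chromosome 19 (chr19:22459740-22826439), both chosen after their values were seen.

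The 25 strongest absent regions, ranked by the lowest −log10 p over the 4 lists, had a mean of 30.8 to 197.5 summit fragments. Of these, 13 lay inside protein-coding genes and 4 were on chromosome 6. Counted apart from that, 12 lay over 100 kb from any gene end, some of them inside long genes. Of all 73599 regions, 51.7% lay inside genes and 25.2% over 100 kb from a gene end.
The first was inside EVL, which encodes an Ena/VASP protein that extends actin filaments (chr14:100096385-100097095). It had 100 fragments in K303R with E2, 91 in K303R without, 103 in wild type with E2 and 80 in wild type without, and the nearest Y537S peak was 2981 bp away. The lines overlapped as counted and scaled by background, and K303R was above wild type when divided by library size. Other strong regions in genes lay in CAPZB, a subunit of the actin-capping protein, in KALRN, FARP1 and RALGAPA2. CAPZB (chr1:19354425-19354950) had 150 and 143 fragments in K303R, with and without E2, and 108 and 101 in wild type. FARP1 (chr13:98416241-98416830), had 90 and 86 in K303R and 65 and 64 in wild type. At both genes every K303R value was above every wild-type value, as counted and by both scalings. KALRN (chr3:124163537-124164160), had 39 and 45 in K303R and 32 and 37 in wild type, and RALGAPA2, a subunit of a Ral inhibitor (chr20:20557335-20557987), had 46 and 39, and 33 and 41.

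Genes of membrane traffic and signalling also held some of the 25. SH3GL3, which encodes an endophilin that bends membranes (chr15:83499467-83500293), had 46 and 37 fragments in K303R, with and without E2, and 34 and 35 in wild type. Its nearest Y537S peak was 112783 bp away, the farthest among the 25. SORCS1, a sorting receptor (chr10:107095025-107095588), had 50 and 30 in K303R and 30 and 31 in wild type, and whether the lines overlapped depended on the scaling. RABEP1, an endosomal partner of Rab GTPases (chr17:5313746-5314236), had 39 and 29 in K303R and 27 and 38 in wild type, and PITPNC1, a phosphatidylinositol transfer protein (chr17:67576333-67576836), had 34 and 31, and 37 and 37. The small receptor genes MC5R, for melanocortin (59 and 39 in K303R, 42 and 44 in wild type), and TAAR5, for trace amines (31 and 44, and 28 and 34), were also hit. ZNF664-RFLNA, a read-through gene, had 43 and 39 in K303R and 30 and 29 in wild type.

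The other 12 lay outside genes, several in wide gene-poor stretches. A region 435823 bp from GJA1, the gap junction gene of connexin 43 (chr6:121885211-121885892), had 39 and 47 fragments in K303R, with and without E2, and 46 and 63 in wild type. A region 610332 bp from the cadherin gene CDH10 (chr5:25255075-25255623) had 35 and 40 in K303R and 28 and 39 in wild type, with the nearest Y537S peak 68735 bp away. A region 184776 bp from CTNNB1, the beta-catenin gene (chr3:41014389-41015149), had 40 and 34 in K303R and 44 and 30 in wild type. As counted, the lines overlapped in all 3. Scaling by library size set K303R above wild type near CTNNB1, and scaling by background set it below near GJA1. The lines separated by every scaling near PARM1, where K303R had 53 and 43 and wild type 27 and 30, and the other way near AGBL1, where K303R had 27 and 29 and wild type 45 and 46. The region 410088 bp from the semaphorin receptor gene PLXNA2 had 35 and 55 in K303R and 75 and 69 in wild type, and a Y537S peak stood 272 bp from it. The remaining regions lay near ISX, RPS6KA1, UBE3D, FAM181B, HDGFL1 and DIAPH3, with 27 to 59 fragments in every library.

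**Figure D2:**
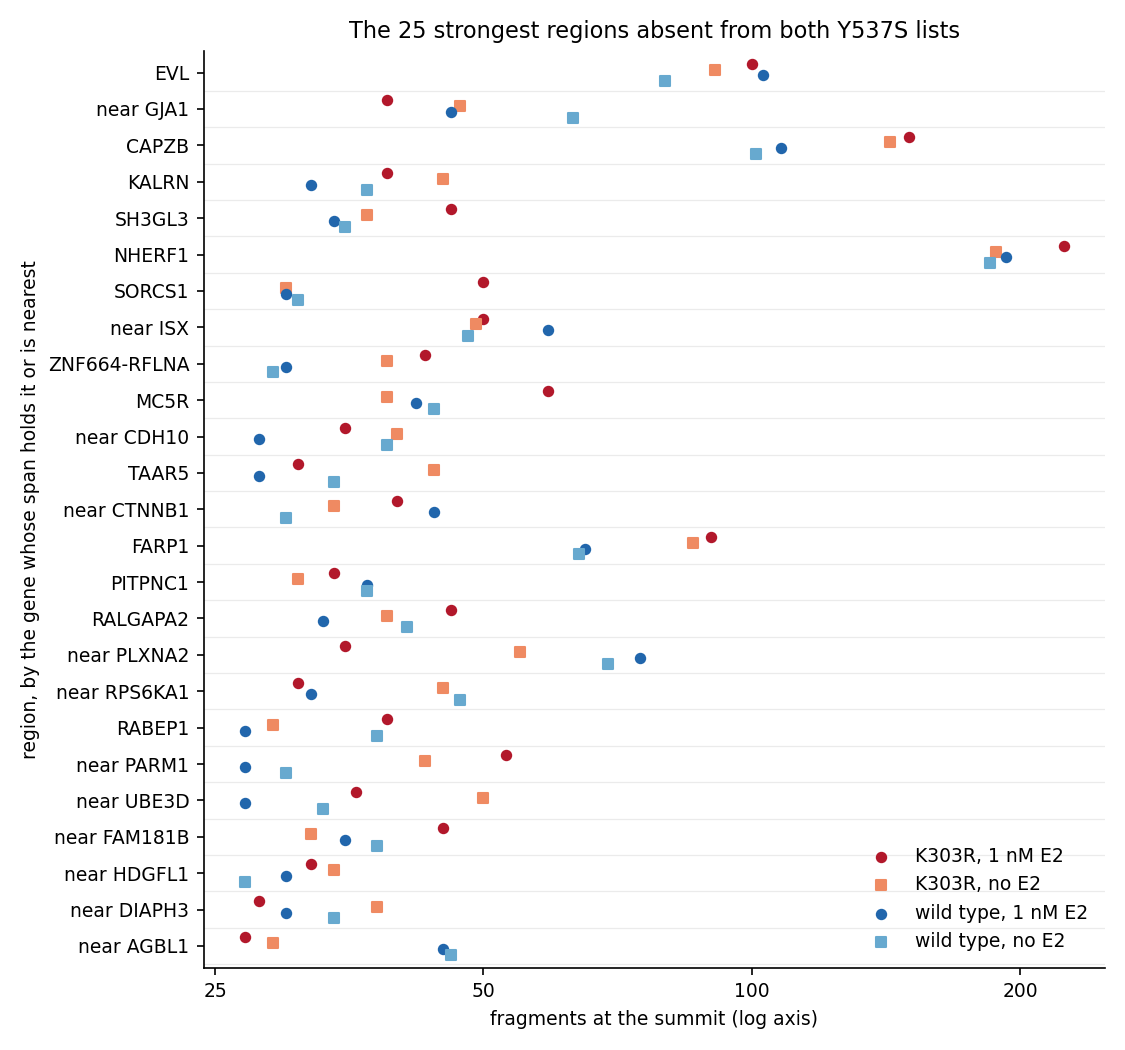
Fragments at the summit (log axis) of the 25 strongest absent regions in the K303R and wild-type libraries, ordered by their lowest −log10 p with the highest on top. Most lie between 27 and 60 fragments in all 4 libraries. EVL, CAPZB, FARP1 and NHERF1 reach over 60 in all 4.

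The absent regions with the most fragments lay in high local background, from 20.8 to 57.1 fragments in wild type without E2 over the 8 with the highest mean. The absent region with the most fragments was in NHERF1, an estrogen-induced scaffold protein under the apical membrane (chr17:74759906-74760355). It had 224 fragments in K303R with E2, 188 in K303R without, 193 in wild type with E2 and 185 in wild type without. The background there was 64.8 fragments in K303R with E2 and 57.1 in wild type without, and a Y537S peak stood 215 bp away. The next by mean fragments, chosen after their values were seen, were near SLC26A9 (164, 142, 140 and 127 in the same order), in CAPZB, in MED24 (133, 120, 91 and 124), near CACNG4 (126, 120, 122 and 99), in WNT9A (134, 120, 83 and 96), in IL24 (91, 73, 115 and 129) and in SHANK2 (112, 97, 101 and 96). Y537S peaks stood 266 to 2116 bp from these 7 regions.

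Few absent regions were counted as differing between E2 and no E2 in either line. Ratios of summit fragments were scaled to the median ratio over 32800 regions that were in all 6 lists with a mean of 50 fragments or more. A region was counted where the ratio was past 1.5-fold and an exact interval, set to miss in 0.1% of cases by counting error, left out 1. Such a count is harder to reach with few fragments. The median summit held 16 to 18 fragments in absent regions, against 34 to 48 over all 73599 regions. Counts at like strength were not compared, so a low count does not show a lack of response. With E2 1 absent region was higher in K303R and 15 were lower, where 1.41% and 0.787% of all 73599 regions were. With E2 2 were higher in wild type and 9 lower, where 1.02% and 0.673% of the 73599 were. The K303R split depended on the scaling. Scaled by the lowest local background, K303R had 10 higher and 2 lower with E2, where 7.55% and 0.0543% of all 73599 were. Wild type had 4 and 5 by that scaling, where 1.60% and 0.330% were. No absent region was counted in both lines, and few of all 73599 were, with 177 higher in both and 21 lower in both.

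The median log2 ratio of E2 over no E2 was −0.27 in K303R for absent regions, against −0.06 for regions of all 6 lists, and −0.14 in wild type against −0.02. Part of this gap went with strength. Under 20 fragments the medians in K303R were −0.35 for absent regions and −0.27 for regions of all 6 lists, and in wild type −0.13 and −0.11. From 20 to 40 fragments they were −0.27 and −0.12 in K303R and −0.20 and −0.07 in wild type. The centring ratio in K303R was 1.21, so −0.27 is the value of a region with equal counts with and without E2. As counted, absent regions held 77300 fragments with E2 and 77742 without in K303R. Scaled by background, the K303R median of the absent regions was 0.09, above 0, so its direction is only relative to the median region.

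The 1 absent region higher with E2 in K303R lay 269035 bp from C8orf90 (chr8:141787545-141787992), with 74 fragments with E2 and 23 without (2.67-fold, 1.65 to 4.47). Wild type had 31 with E2 and 32 without. In wild type a region in NTN1, the gene of the guidance protein netrin (chr17:9179040-9179362), had 55 fragments with E2 and 21 without (2.59-fold, 1.54 to 4.50), and K303R had 67 and 35 (1.59, 1.04 to 2.46, not counted). A region 265386 bp from CFAP20DC (chr3:59315183-59315587) had 76 with E2 and 34 without in wild type (2.21, 1.45 to 3.41), and 26 and 19 in K303R. Each rise counted was thus in 1 line, and the difference between the lines was not tested.

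The absent regions that were lower with E2 were spread over several chromosomes. In K303R a region 12556 bp from TP63, the p53-family gene of basal epithelium (chr3:189909580-189910282), had 11 fragments with E2 and 31 without (0.29, 0.13 to 0.60). One 12997 bp from GOT1, the cytosolic aspartate aminotransferase gene (chr10:99443381-99443968), had 16 and 43 (0.31, 0.16 to 0.56). One in GPR141, an orphan receptor gene, and one 225329 bp from STT3B each had 14 and 33, and one near LOC124907776 had 18 and 43. All 5 of these calls were lost when scaled by the lowest local background, with log2 ratios of −1.40 (TP63), −1.33 (GOT1), −1.14 (GPR141 and STT3B) and −1.16 (LOC124907776). In wild type a region in EYS, a photoreceptor matrix gene (chr6:64142387-64142862), had 23 with E2 and 71 without (0.32, 0.19 to 0.52), where K303R had 15 and 21. A region 96712 bp from FAM20A had 9 with E2 and 30 without in wild type (0.30, 0.12 to 0.64), where K303R had 59 and 51. Regions near OTOL1 (11 and 35), near NRSN1 (15 and 41) and in GRID2IP (14 and 40) were also lower with E2 in wild type. Scaled by background, the calls near FAM20A (−1.67) and NRSN1 (−1.38) were lost.

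Absent regions carried relatively more K303R than wild-type signal. The median log2 ratio of K303R over wild type was 0.26 with E2, against −0.03 for regions of all 6 lists. Without E2 it was 0.45, against −0.01. Regions in 1 of the Y537S lists lay between, at 0.13 with E2 and 0.30 without. The rule uses no ratio between the lines, but these same counts had to pass the threshold of a peak in both. As counted, the medians in K303R and wild type were close, at 17 and 16 with E2 and 18 and 17 without. Counts were divided by a centring ratio of 0.913 with E2 and 0.753 without, so equal counts give a log2 ratio above 0. How much of the excess came from this was not tested. The gap to the regions of all 6 lists was narrowest in the weakest regions and widest from 20 to 40 fragments. In that middle class the medians were 0.37 with E2 (against −0.14) and 0.49 without (against −0.09), over 1084 absent regions. At 40 fragments or more the medians were 0.42 with E2 (against −0.01) and 0.47 without (against −0.00), over 230 absent regions. Under 20 fragments they were 0.20 (against 0.01) and 0.41 (against 0.15).

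Of the absent regions, 113 (3.20%) were counted higher and 15 lower in K303R than in wild type with E2, where 3.72% and 6.29% of all 73599 regions were. Without E2 186 (5.26%) were higher and 8 lower, where 3.57% and 4.51% were. The share higher was near the background with E2, and the share lower was under it in both treatments. Few fragments make these counts harder to reach in absent regions, and shares at like strength were not compared. In both treatments 49 of the 3535 absent regions were higher and 1 was lower, where 1022 and 1837 of all 73599 were. The share higher in both was thus near that of all regions. Scaled by the lowest local background, 86 were higher and 21 lower with E2, where 2.66% and 8.01% of all 73599 were. Without E2 49 were higher and 36 lower by that scaling, where 0.660% and 14.4% were. The medians were 0.17 with E2 and 0.06 without, against −0.12 and −0.40 for regions of all 6 lists. The size and split of this difference are thus relative to the median region. Absent regions over 1 kb from every Y537S peak had medians of 0.26 and 0.44.

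The 6 regions with the widest excess of K303R in both treatments included several near known genes. A region 312 bp from GPT2, the mitochondrial alanine aminotransferase gene (chr16:46883582-46884301), had 47 and 37 fragments in K303R, with and without E2, and 11 and 10 in wild type (4.68-fold and 4.91-fold). In the gene desert beyond MYC, the growth-promoting transcription factor gene, a region 685411 bp away (chr8:128428045-128428595) had 99 and 112 in K303R and 32 and 31 in wild type (3.39, 2.25 to 5.22, and 4.80, 3.20 to 7.39). A region in NPAS2, a clock transcription factor gene (chr2:100957917-100958576), had 33 and 33 in K303R and 11 and 12 in wild type. One 8175 bp from TFF2 (chr21:42337785-42338410), beside the estrogen-induced trefoil genes TFF1 and TFF3, had 30 and 29 in K303R and 9 and 11 in wild type. The others lay near CSMD3 (33 and 35, and 10 and 13) and RPEL1 (32 and 33, and 8 and 10). In all 6 regions the lines did not overlap, as counted or by either scaling. Scaled by the lowest local background, the calls without E2 were lost at NPAS2 (log2 ratio 1.48), CSMD3 (1.45) and TFF2 (1.42). The region beyond MYC lay in a background of 8.56 and 10.7 fragments in K303R, with and without E2, against 3.38 and 3.11 in wild type. The log2 ratio of its deposited folds was 0.55 with E2 and 0.47 without, both under 1.5-fold. The 1 region lower in K303R in both treatments lay 86732 bp from the olfactory receptor gene OR13F1 (chr9:104417283-104417787), with 13 and 13 in K303R and 41 and 47 in wild type. The region near FAM20A had the widest excess of K303R with E2 among the regions named here (7.18-fold, 3.54 to 16.5) and 2.26-fold (1.41 to 3.67) without. Its log2 ratio of deposited folds was 1.63 with E2 and 0.080 without, and the call without E2 was also lost when scaled by background (0.78).

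Absent regions were scarce at gene ends. A summit lay within 1 kb of an end of a protein-coding gene in 119 absent regions (3.37%, 2.80 to 4.01), against 9.20% (8.98 to 9.42) of regions of all 6 lists and 8.30% (7.49 to 9.17) of those in 1 Y537S list. This location was not used by the rule. Start sites alone gave 2.81% against 7.68%, on the chromosomes of the RefSeq table. The gap was widest among weak regions. Under 20 fragments 3.56% of absent regions and 20.2% of regions of all 6 lists were near a gene end, and at 40 or more it was 3.91% (9 of 230) and 6.62%. Absent regions were inside a gene span somewhat less often than regions of all 6 lists, at 47.6% (46.0 to 49.3) against 52.0%, and over 100 kb from a gene end in 32.8% against 24.6%. The median distance to a gene end was 46951 bp against 29486 bp. Regions missing only from K303R were farther still, with 2.73% (2.30 to 3.21) within 1 kb of a gene end, 43.5% over 100 kb away and a median of 76505 bp. Scarcity at gene ends was therefore shared by the regions missing from either mutant.

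**Figure D3:**
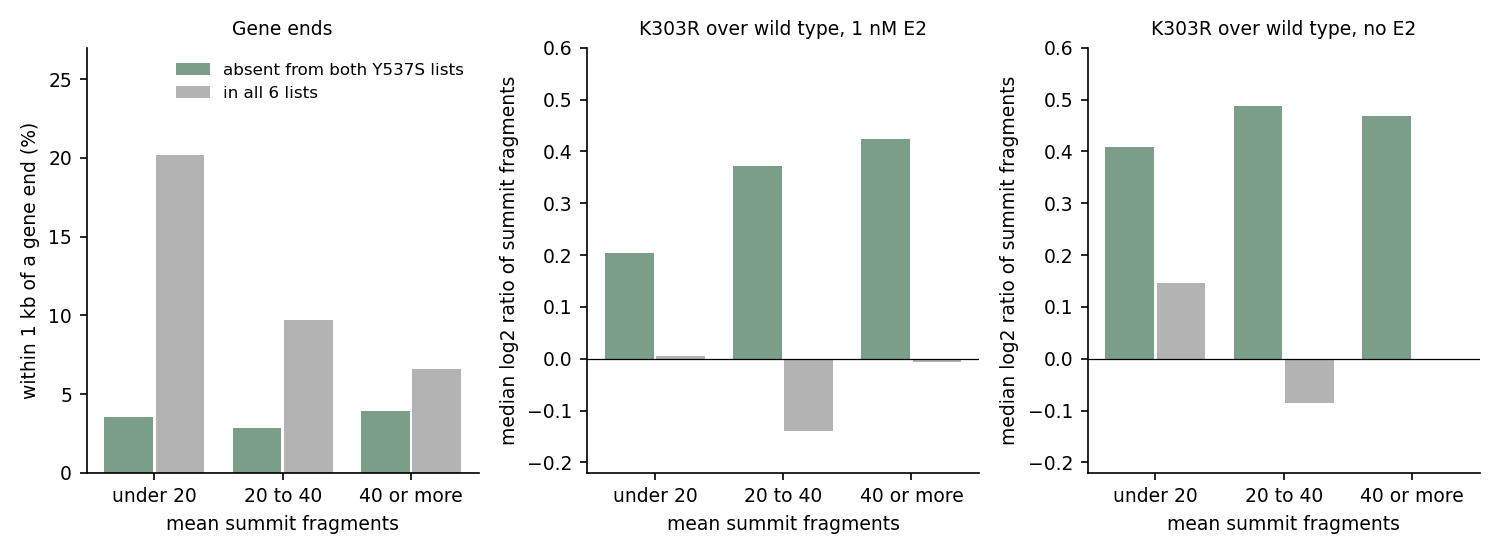
Absent regions (green) and regions of all 6 lists (grey) by mean summit fragments: the share within 1 kb of a protein-coding gene end (%), and the median log2 ratio of K303R over wild type with 1 nM E2 and with none. The green bars stay between 2.86% and 3.91% near gene ends and between 0.20 and 0.49 on the log2 scale.

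Chromosome 6 held more absent regions than its share. It had 329 of them, 9.31%, where it held 5.91% of the 73599 regions, and 7.56% (6.79 to 8.38) of its regions were absent. Its 20 Mb windows ran from 3.02% to 10.7%, with the highest between 60 and 80 Mb. The lowest shares were on chromosomes 19 (2.84%, 2.13 to 3.71) and 22 (2.90%, 2.19 to 3.76). Of the regions in both wild-type and both Y537S lists, 6.57% on chromosome 6 and 1.73% on chromosome 19 were missing only from K303R. Chromosome 6 also had the lowest ratio of Y537S over wild type at its well-covered regions, a median log2 of −0.33 with E2 and −0.35 without, and chromosome 19 the highest, at 0.33 and 0.27. Across the 22 chromosomes the share absent and this ratio had a Pearson r of −0.80 with E2 and −0.85 without (Spearman −0.68 and −0.80). Without chromosome 6 r was −0.64 and −0.71, and without chromosomes 6 and 19 it was −0.49 and −0.61. Both measures use the same Y537S libraries, so this is a description with no p.

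**Figure D4:**
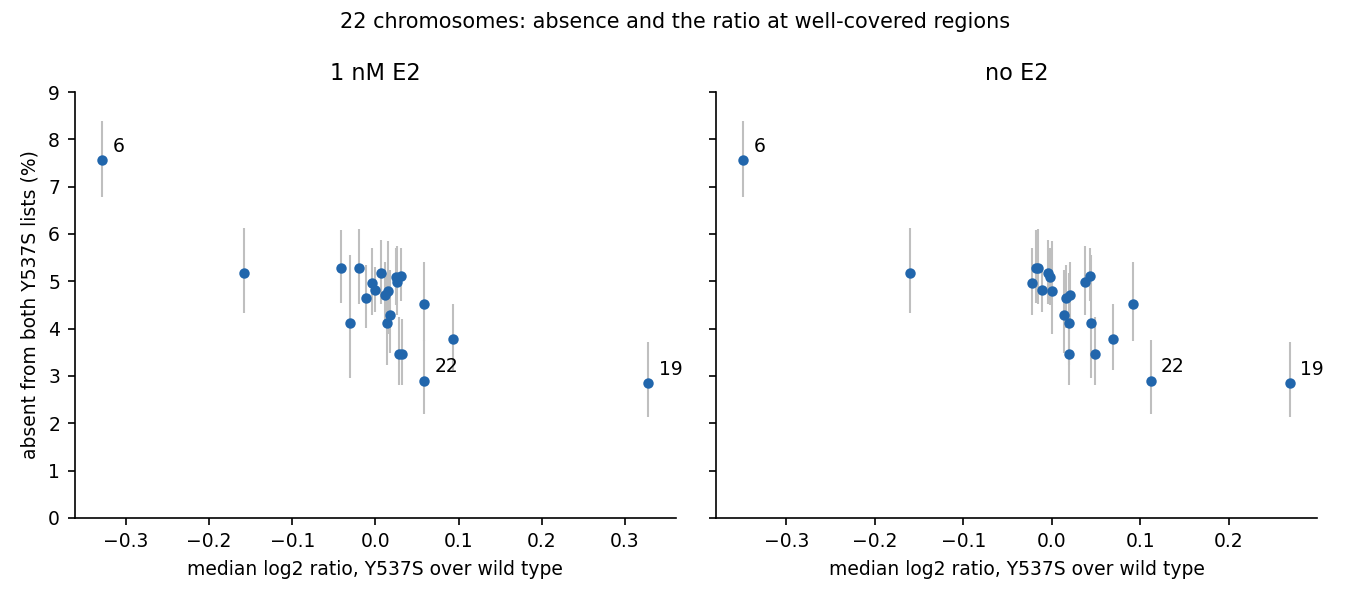
Share of each chromosome's regions absent from both Y537S lists (%, with 95% exact binomial intervals) against the median log2 ratio of Y537S over wild type at its well-covered regions, with 1 nM E2 and with none. Chromosome 6 stands alone at 7.56% with ratios of −0.33 and −0.35, and chromosome 19 at 2.84% with 0.33 and 0.27.

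Regions around the absent ones had lower ratios of Y537S over wild type than regions far from them. Among regions of all 6 lists within 5 kb of an absent region, the median log2 ratio of Y537S over wild type was −0.13 with E2 and −0.21 without (n = 1287). From 5 to 25 kb it was −0.15 and −0.21, from 25 to 100 kb −0.08 and −0.11, and beyond 1 Mb 0.05 and 0.03. All 65801 regions had −0.03 and −0.07. Within 100 kb the medians were −0.08 and −0.14, and they were −0.08 and −0.12 relative to the median of the same chromosome. Without chromosome 6 they were −0.08 and −0.11. Around regions missing only from K303R the same ratio of Y537S over wild type was −0.04 and −0.07 within 100 kb. The ratio of K303R over wild type was lowered there, at −0.10 with E2 and −0.08 without. A lower ratio around a receptor's own missing regions was therefore shared by both mutants. The ratio of K303R over wild type within 100 kb of absent regions was 0.01 with E2 and 0.03 without, against −0.03 and −0.01 for all. Scaled by background the Y537S medians within 100 kb were 0.04 and 0.09, so their direction is relative to the median region.

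**Figure D5:**
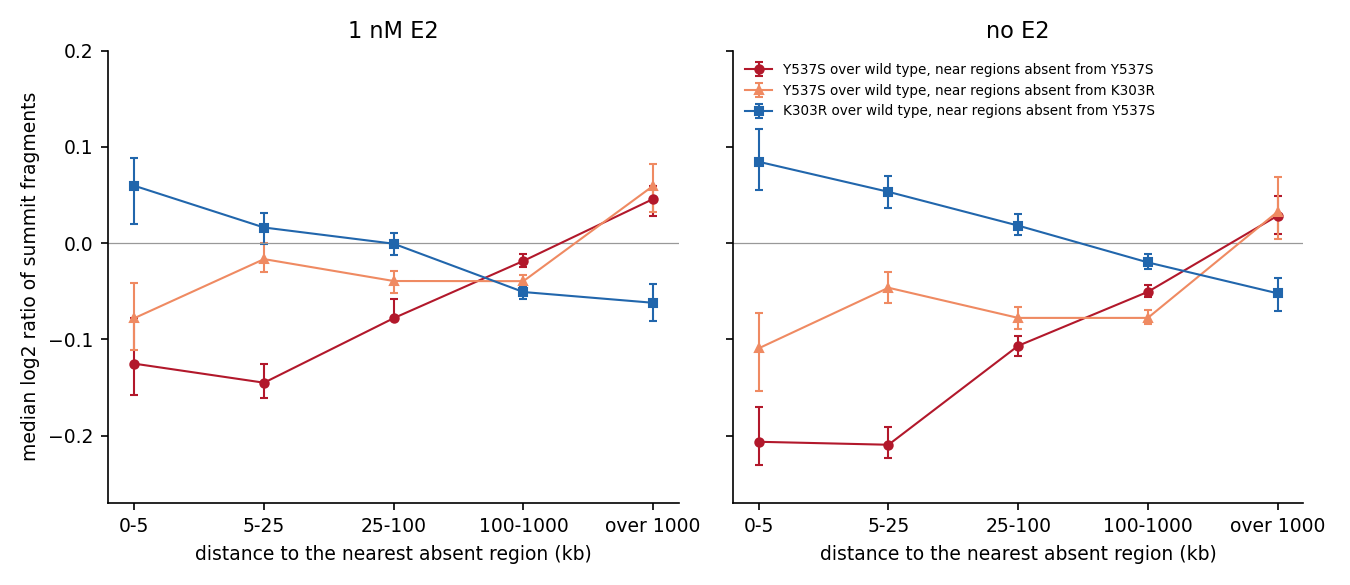
Median log2 ratio of summit fragments in regions of all 6 lists by distance to the nearest absent region (kb), with 1 nM E2 and with none. Bars are 95% order-statistic intervals. The ratio of Y537S over wild type is −0.13 and −0.21 within 5 kb of regions absent from Y537S and 0.05 and 0.03 beyond 1 Mb.

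Some long genes held several absent regions. These genes were chosen after their values were seen. EYS, 1987 kb long and on chromosome 6, held 9 of its 21 regions listed for K303R and wild type. LPP, an adhesion protein gene, held 5 of 40 and TRAPPC9 5 of 47. CDC14A, a phosphatase gene, held 4 of 11, the histone deacetylase gene HDAC9 4 of 13, PDE4B 4 of 15 and the axon guidance receptor gene ROBO2 4 of 21. Most genes that held any held 1 (1166 genes), while 176 held 2 and 44 held 3.

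Genes of the estrogen response gave a share of absent regions close to that of all genes. Within 25 kb of 10 of 44 estrogen receptor target genes there was an absent region, and 13 of the 342 distinct regions near these genes were absent (3.80%, 2.04 to 6.41), against 2232 of 51422 near all protein-coding genes (4.34%). A region near several genes of a list is counted once. Besides NHERF1 they included PGR, the progesterone receptor gene, where an absent region inside the span (chr11:101084914-101085383) had 9 and 17 fragments in K303R, with and without E2, and 14 and 11 in wild type. CTSD, the cathepsin D gene (chr11:1762340-1762695), had 59 and 58 in K303R and 35 and 52 in wild type. MYB, a transcription factor gene on chromosome 6, had a region of 63 and 78 in K303R and 48 and 40 in wild type (chr6:135212427-135212834), and TPD52L1, on the same chromosome, had 3 absent regions. EGR3, an early response transcription factor gene, had 39 and 53 in K303R and 29 and 33 in wild type at 519 bp from its span, and TFF1, TFF3, DSCAM and TIPARP made up the 10. TFF1 and TFF3 share the region beside TFF2.

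Luminal, androgen receptor and apocrine genes gave like shares. Among 30 luminal identity genes 7 had an absent region nearby (8 of 202 regions, 3.96%, 1.73 to 7.65). They were GATA3, the luminal pioneer factor gene (chr10:8044858-8045700, 30 and 50 fragments in K303R, 31 and 32 in wild type), GRHL2 (chr8:101492225-101492903, 46 and 61, and 31 and 44), the E-cadherin gene CDH1, SPDEF, TFAP2A, AGR2 and ST14. Of 32 androgen receptor and apocrine genes 5 had one (6 of 134 regions, 4.48%, 1.66 to 9.49): ELL2, PMEPA1, STEAP4, PIP and ALOX15B. ELL2, an elongation factor gene, had the strongest, 14068 bp from its span (chr5:95870818-95871308), with 26 and 25 in K303R and 21 and 31 in wild type.

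Shares were above that of all genes near kinase, basal and neuronal genes. For the basal and neuronal lists the interval included the share of all genes, 4.34%. For the kinase list it began just above that, at 4.47%, and included the 4.80% of all 73599 regions. The intervals treat regions as independent, though some genes gave several, and 10 lists were looked at, so they are no test. Of 29 receptor kinase and PI3K pathway genes 10 had an absent region within 25 kb (14 of 174, 8.05%, 4.47 to 13.1). KIT, a growth factor receptor gene (chr4:54709540-54709896), had 22 and 17 fragments in K303R and 16 and 16 in wild type, 44967 bp from the nearest Y537S peak. IGF1R, the receptor for IGF1, held 3 absent regions, and ERBB2 and its neighbour GRB7 share a pair of them. FGFR4 had one 2766 bp from its span, with 36 and 26 in K303R and 12 and 11 in wild type. Others were ERBB4, AKT1, EPHA2 and SOS1. Of 26 basal and mesenchymal genes 5 had one (11 of 136, 8.09%, 4.11 to 14.0), and 5 of those 11 belonged to TP63, where the strongest (chr3:189779124-189779572) had 31 and 25 in K303R and 15 and 23 in wild type. MYLK, SPARC, TGFBI and CDH3 were the others, and CDH3 shares its region with CDH1. Of 22 neuronal genes 9 had one (13 of 185, 7.03%, 3.79 to 11.7), with NLGN1, a synaptic adhesion gene, the strongest (chr3:173599364-173600001, 24 and 30 in K303R, 14 and 27 in wild type), and with NRXN3, SYT1, SNAP25, GRIN2B, CAMK2A, MAP2 and ELAVL4 among the others.

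Shares were below that of all genes near coregulators and early response genes. For the early response list the interval included the share of all genes, 4.34%. For the coregulators it ended just under that, at 4.14%, with 3 absent regions. Among 26 nuclear receptor coregulator genes 3 had an absent region (3 of 209, 1.44%, 0.297 to 4.14): the coactivator gene NCOA2 and the corepressor genes TLE1 and TLE3. TLE1 (chr9:81656828-81657316) had 18 and 23 in K303R and 21 and 37 in wild type. Of 30 immediate early genes FOSL2, an AP-1 subunit gene, and CCN2 had one (2 of 138, 1.45%, 0.176 to 5.14). FOSL2 had 86 and 57 in K303R and 59 and 46 in wild type, 15482 bp from its span (chr2:28377184-28377618). Of 40 WNT pathway genes 8 had one (10 of 197, 5.08%, 2.46 to 9.14), among them WNT5B (35 and 33 in K303R, 26 and 22 in wild type), WNT9A, ZNRF3, SFRP2, LEF1, TCF7L1 and TCF7L2, and of 20 housekeeping genes ACTB and YWHAZ (2 of 68, 2.94%, 0.358 to 10.2). These are small counts, and the part of region strength, with which absence goes, in the differences between lists was not tested.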

How the data were processed

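Values came from 6 peak lists, 1 per library, in which the authors deposited each peak's position (hg38) and summit, its fold enrichment (a ratio to local background), and the score, −log10 q-value and −log10 p-value of the peak. MACS2, Bowtie2, bedtools, Picard and SAMtools are named, per the submitters' processing notes, without versions or roles. The sources used here give neither the settings nor a control library. The q-values and the score were not used.

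Summit fragments and local background were solved from the deposited fold, with a pseudocount of 1, and the deposited p, taken as a Poisson tail. The p-values were matched within 0.01% for all but 18 to 64 peaks of each list. The solution and the calls were tested on simulated data. Ratios were centred on the median region. The alternative scaling used the lowest local background. Intervals are exact binomial or conditional binomial, and those of medians are order-statistic intervals (Python 3.11.15, scipy 1.17.1, pandas 2.3.3).

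The members, gene lists (304 genes, 299 matched on these chromosomes, 1 through an older symbol) and comparisons were chosen with earlier results of these data known. Named regions were the 25 with the highest lowest −log10 p, the strongest within 25 kb of each gene list, up to 5 with the largest and 5 with the smallest counted E2 ratio per line at a mean of 20 fragments or more, and those at the edge of the rule. The 8 regions with the most fragments, those differing between K303R and wild type in both treatments, the promoters and the genes holding most regions were added after their values were seen. A region was named by the gene whose span holds its summit, or else by the nearest protein-coding gene in RefSeq (GRCh38.p14, spans without strand or exons). No genome sequence was used here, so motifs at the summits were not searched, and promoter windows were searched instead.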

Additional observations from a re-analysis of the deposited data

Results flagged for a closer look

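Chromosome X was outside the rule. There, 169 of the 2298 regions in both K303R lists and both wild-type lists were in neither Y537S list, 7.35% (6.32 to 8.50), close to the 7.56% of chromosome 6 and above the 4.8% of chromosomes 1 to 22. On the same chromosome 8.64% were missing only from K303R, 209 of 2419. This was flagged because a signal appeared in data that the description of chromosomes 1 to 22 does not use. The difference from the other chromosomes has no replicate check.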

How the results depend on the processing

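The number of absent regions, 3535, depended on the thresholds. Asking for a −log10 p of 10 in the K303R and wild-type lists left 981 (1.74% of the regions so listed), and with that threshold in all lists the share was 4.54%. Absence from the Y537S list with E2, whatever the other list held, gave 5913 (8.03%), and from the list without E2 5420 (7.36%), alternatives added after the data were seen. The share was 6.57% when a list's peaks had to cover 50% of a region, and 4.51% with the same number of peaks from each list. The share within 1 kb of a gene end was 2.24% at a −log10 p of 10, and 11.4% lay within 5 kb.

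Medians of E2 over no E2 were 0.092 in K303R and −0.059 in wild type when scaled by the lowest local background, −0.10 and −0.11 from deposited folds, and −0.25 and −0.18 at a mean of 20 fragments or more. Medians of K303R over wild type, with and without E2, were 0.17 and 0.063 scaled by background and 0.18 and 0.17 from folds, and 0.38 with E2 at 20 fragments or more. Medians of Y537S over wild type near absent regions, with and without E2, were 0.040 and 0.086 scaled by background and −0.14 and −0.21 within 25 kb. Without E2 they were −0.12 relative to the same chromosome and −0.11 without chromosome 6. The cause of these shifts was not tested.

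The other 23 values stayed within their intervals or within 1.5 times. Of the 60 named regions, 45 to 60 stayed in the set under each alternative. Of 40 ratio calls on them, 17 were lost with background scaling, of which 13 were still past 1.5-fold and 10 past 2-fold (size of the log2 ratio 0.30 to 1.67), and 8 fell under 1.5-fold with deposited folds. No paired analysis was possible because each group has 1 library. The threshold, about 5 fragments at the lowest local background and more where the background is higher, limits what absence from a list can show.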
